A study of Mus musculus with 6 samples.

Results

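The 36 genes described here encode the actin cytoskeleton and its contractile machinery, and they were taken from the deposited table by their symbols. They comprise the actins, the myosin II chains, the transgelins and calponins, the tropomyosins and caldesmon, cross-linkers and adhesion proteins, profilin and cofilin, the transcription factor Srf and the Phactr family. All 36 were found among the 53797 genes listed, each in a single row. The list was drawn up with the values of both groups in view, so the differences below are descriptions of these values and carry no test.

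The cells were MLO-Y4, a single murine cell line with features of osteocytes, the mechanosensing cells embedded in bone. RNA was sequenced from 3 samples treated with LIPUS (low-intensity pulsed ultrasound, 1.5 MHz, pulsed-wave mode, 30 mW/cm2, for 20 min) and from 3 untreated Control samples. According to the methods, cells sat on collagen in multi-well plates, treated and Control wells shared a plate with the transducers under the Control wells unplugged, and RNA was taken 30 min after the stimulation. The study describes the RNA samples as coming from independent repeats, while its statistics section excepts RNA-seq from the experiments that were repeated. It also describes the Control replicates as not all alike, and what part this has in the pooled Control levels was not tested. The authors deposited 1 FPKM (fragment counts scaled by exon length and by sequencing depth) per gene and group, so the level of a single sample, its SD and the spread between replicates cannot be given for any gene. Differences are log2 ratios of LIPUS over Control after adding 1 to each FPKM, and positive values are higher with LIPUS. A gene is counted when this ratio reaches 1.5-fold in either direction.

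Actin filaments grow from monomers and slide past myosin II, whose heavy chains carry the motor and whose light chains switch it on by phosphorylation. Tropomyosins, caldesmon and calponins lie along the filament, filamins and alpha-actinins tie filaments together, and talin, vinculin and zyxin link them to integrin adhesions. The pool of free actin monomers also acts on transcription, because monomers hold the coactivators of Srf (the MRTF proteins) and the Phactr proteins through the same kind of motif. Srf binds the CArG box, a short element known from the promoters of actins and smooth muscle genes. In osteocytes this cytoskeleton is the structure through which fluid flow and strain reach the nucleus.

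Of the 36 genes, 33 had a mean FPKM of at least 1 over both groups. Among these, Myl9, Acta2, Tagln and Acta1 were at least 1.5-fold higher with LIPUS, which is 4 genes where 5.63% of the 11536 genes at this level were. Phactr1 was the only member at least 1.5-fold lower, where 5.95% of those genes were. The remaining 28 members lay between -0.52 and 0.56 on the log2 scale, 22 of them above 0 and 6 below. The median log2 ratio of the 33 members was 0.24, against -0.00169 over the 11536 genes, and 26 members were higher by any amount, where 49.8% of all genes were. Since the values were known when the list was made, nothing about the members is read from these counts.

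The CArG box was searched in the promoter sequences of RefSeq (build GRCm38.p6), which run from 250 bases before to 50 bases after a transcription start. The box is its own reverse complement in pattern, so a single search covers both strands. Promoters were found for 31 members, and not for Actb, Actg2, Myh11, Phactr3 and Tagln. Of the 31, 7 (22.6%) held at least 1 exact box, against 1.81% of the 27025 genes with a promoter sequence. Below are the stretches upstream of the start for the 2 members with a box that were also counted as higher, Myl9 and Acta1, with the box in capitals.

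Myl9 (chr2:156775214-156775463, plus strand): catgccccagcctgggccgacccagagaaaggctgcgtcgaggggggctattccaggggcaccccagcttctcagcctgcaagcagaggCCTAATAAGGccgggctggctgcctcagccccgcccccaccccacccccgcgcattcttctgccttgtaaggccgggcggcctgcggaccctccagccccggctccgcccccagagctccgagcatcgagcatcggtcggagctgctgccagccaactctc

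Acta1 (chr8:123894776-123895025, minus strand): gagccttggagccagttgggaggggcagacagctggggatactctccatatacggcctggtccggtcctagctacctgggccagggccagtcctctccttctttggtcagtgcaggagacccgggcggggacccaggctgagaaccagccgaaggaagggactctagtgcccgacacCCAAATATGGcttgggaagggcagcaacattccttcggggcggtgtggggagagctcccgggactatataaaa

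The other members with a box are shown by 60 bases around it, again 5′ to 3′ with the boxes in capitals, so that the element can be compared between genes. Srf holds 2 of them in its own promoter, and the Myl6 box lies before an alternative start of that gene.

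Cnn2 (chr10:79988519-79988578, plus strand): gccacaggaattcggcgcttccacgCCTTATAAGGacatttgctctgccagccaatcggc

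Myl6 (chr10:128493025-128493084, minus strand): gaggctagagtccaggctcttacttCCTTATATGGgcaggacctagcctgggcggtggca

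Actg1 (chr11:120348551-120348610, minus strand): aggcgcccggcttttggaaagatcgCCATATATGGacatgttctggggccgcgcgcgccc

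Srf (chr17:46556210-46556269, minus strand): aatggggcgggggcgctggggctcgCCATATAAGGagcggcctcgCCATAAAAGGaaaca

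Vcl (chr14:20929148-20929207, plus strand): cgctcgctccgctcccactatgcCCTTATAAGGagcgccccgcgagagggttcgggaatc

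Counted from the transcription start, the Myl9 box began at base -161 and that of Acta1 at -73. The boxes of Actg1, Cnn2 and Myl6 began at -90, -56 and -50, those of Srf at -82 and -62, and that of Vcl at -227. The genes with these boxes had log2 ratios from -0.06 for Vcl to 1.64 for Myl9, and 6 of the 7 were above 0, with a median of 0.35. Of the 129 other genes at this level with a box 55.8% were above 0, and of the 8522 without a box 49.7%. The 23 other members with a promoter sequence and a mean FPKM of at least 1 had a median of 0.22 and 17 above 0, with Acta2 counted as higher and Phactr1 as lower. A window without an exact box says only that these letters were not found there. The members were listed with their values in view, so no link between the box and the ratios is read from these counts.

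**Figure D1:**
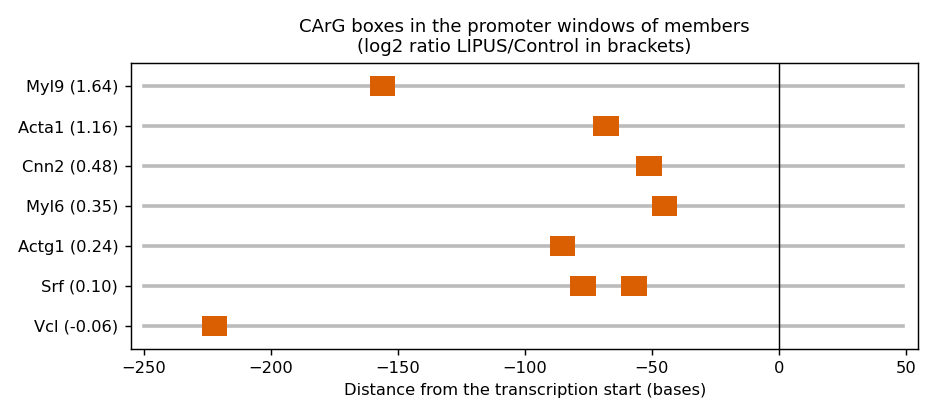
Position of each exact CArG box (orange, 10 bases) in the promoter windows of the 7 members that hold one, with the distance from the transcription start in bases on the x axis. Genes are ordered by their log2 ratio, given in brackets, from Myl9 (1.64) to Vcl (-0.06), and Srf holds 2 boxes.

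Over the whole table, 136 of 8658 genes with a promoter sequence and a mean FPKM of at least 1 held a box (1.57%). Leaving out the members, 129 such genes remained, of which 5 (3.88%) were at least 1.5-fold higher with LIPUS and 1 (0.775%) was at least 1.5-fold lower. Among the 8522 genes without a box, members included, 4.67% were higher and 5.15% lower. The median log2 ratios were 0.0364 and -0.00179.

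The muscle actins are the isoforms of contractile tissue. Acta2, the smooth muscle alpha-actin (chr19:34241090-34255590, GRCm38), had an FPKM of 4.81 in Control and 12.7 with LIPUS, a log2 ratio of 1.24. Acta1, the skeletal muscle alpha-actin (chr8:123891769-123894751), had 1.97 and 5.62 FPKM, a log2 ratio of 1.16. Actg2, the smooth muscle gamma-actin, was the most abundant of the 3 in both groups, at 17.9 and 20.9 FPKM (0.22). The 3 muscle actins together made up 0.431% of the summed actin FPKM in Control and 0.590% with LIPUS.

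Nearly all actin message was cytoplasmic. Actb had an FPKM of 2929 in Control and 3338 with LIPUS (log2 ratio 0.19), and Actg1 had 2770 and 3282 (0.24). In Control they ranked 13 and 15 of all genes listed by FPKM. Actc1, the cardiac actin, and Actbl2 were listed at 0 in both groups. The summed FPKM of the actins was 1.16 times as high with LIPUS, and Actb kept close to the same share of it (51.2% and 50.1%).

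Among the myosin II light chains, Myl9 differed most between the groups. Myl9 encodes the regulatory light chain typical of smooth muscle (chr2:156775420-156781658), and had an FPKM of 28.8 in Control and 91.9 with LIPUS, a log2 ratio of 1.64. Its rank among all genes went from 3306 to 1061. Its close relatives Myl12a and Myl12b, which encode the non-muscle regulatory light chains and lie side by side on chromosome 17, did not share this difference. Myl12a had 619 and 720 FPKM (0.22), and Myl12b 68.0 and 63.9 FPKM (-0.09). Myl9 thus made up 4.03% of the regulatory light chain FPKM in Control and 10.5% with LIPUS, while Myl12a stayed the main isoform (86.5% and 82.2%). Myl6, the essential light chain, was among the most abundant messages of the cells, at 1686 and 2149 FPKM (0.35).

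The heavy chains came almost wholly from Myh9, the non-muscle IIA chain, with 363 FPKM in Control and 382 with LIPUS (0.07). Myh10, the IIB chain, had 0.0323 FPKM in Control and was listed at 0 with LIPUS. Myh11, the smooth muscle chain, was listed at 0 in Control and had 0.0361 FPKM with LIPUS. Either value was worth about 1 fragment, so no difference between the groups can be read for these genes. The smooth muscle light chain Myl9 was therefore measured in cells with hardly any smooth muscle heavy chain message.

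**Figure D2:**
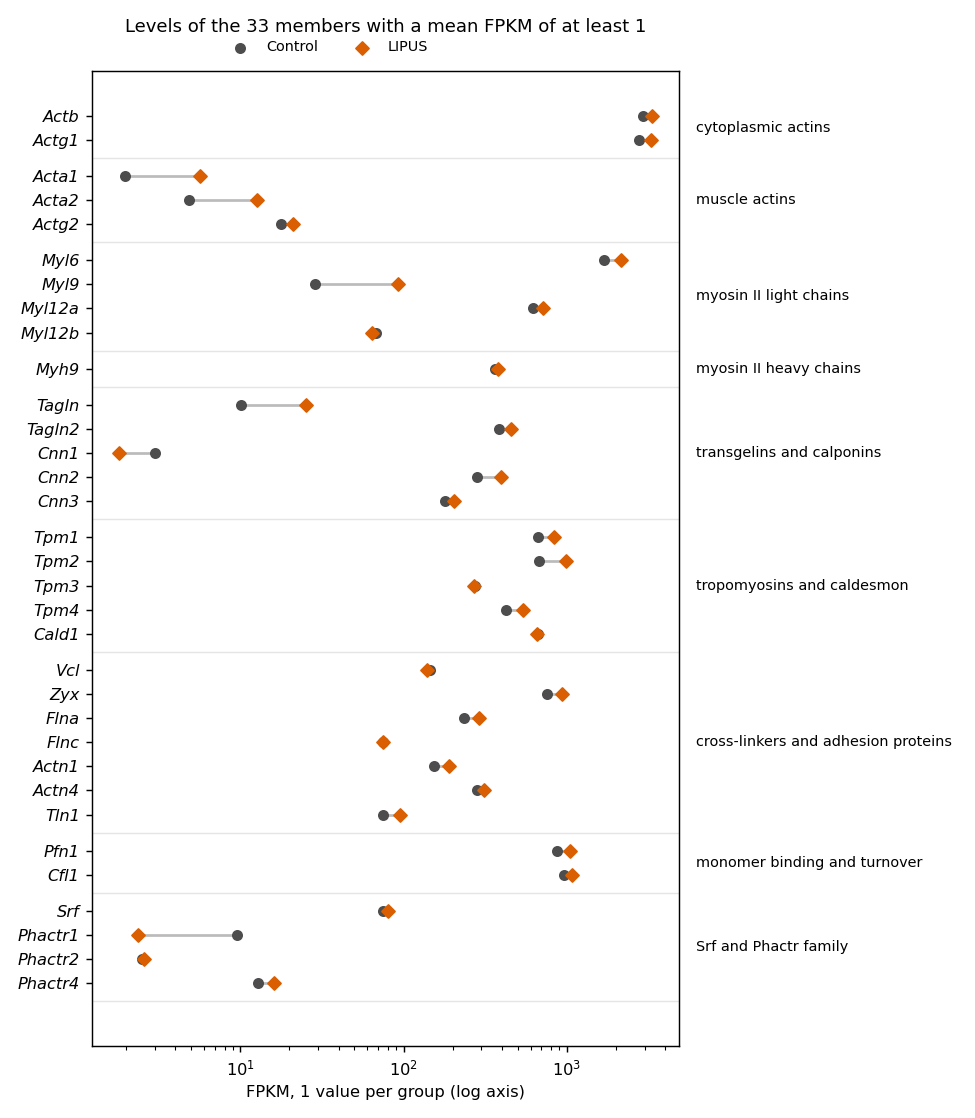
FPKM of each of the 33 members with a mean FPKM of at least 1, on a log axis, with 1 value per group (grey circles Control, orange diamonds LIPUS) and the members grouped by role. The wide gaps belong to Acta1, Acta2, Myl9, Tagln and Phactr1, all under 100 FPKM in both groups, while members above 100 FPKM lie close together.

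Transgelin, a small actin-binding protein used as an early smooth muscle marker, had a ratio close to that of Acta2. Tagln (chr9:45929619-45936058) had an FPKM of 10.1 in Control and 25.1 with LIPUS, a log2 ratio of 1.24. Its widely expressed relative Tagln2 had 383 and 455 FPKM (0.25). The share of Tagln in the transgelin FPKM was 2.57% in Control and 5.24% with LIPUS.

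The calponins bind actin and restrain myosin. Cnn1, the smooth muscle calponin, had 3.01 FPKM in Control and 1.81 with LIPUS, a log2 ratio of -0.52 that fell short of 1.5-fold on the FPKM + 1 scale. By the estimate of fragments given further on, these values may rest on too few fragments to read a direction. Without a pseudocount its log2 ratio was -0.74 and passed 1.5-fold. Cnn2, the calponin of non-muscle cells, had 281 and 394 FPKM (0.48), and Cnn3, the acidic calponin, 178 and 203 FPKM (0.19).

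The tropomyosins coat actin filaments and decide which other proteins reach them. Tpm2 had 674 FPKM in Control and 994 with LIPUS, a log2 ratio of 0.56, close below 1.5-fold. Tpm1 had 666 and 838 FPKM (0.33) and Tpm4 426 and 542 FPKM (0.35), whereas Tpm3 had 275 and 271 FPKM (-0.02). The share of Tpm2 in the summed tropomyosin FPKM was 33% in Control and 37.6% with LIPUS, and that of Tpm3 13.5% and 10.3%. Caldesmon, which binds both tropomyosin and myosin, was level at 670 and 655 FPKM for Cald1 (-0.03).

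**Figure D3:**
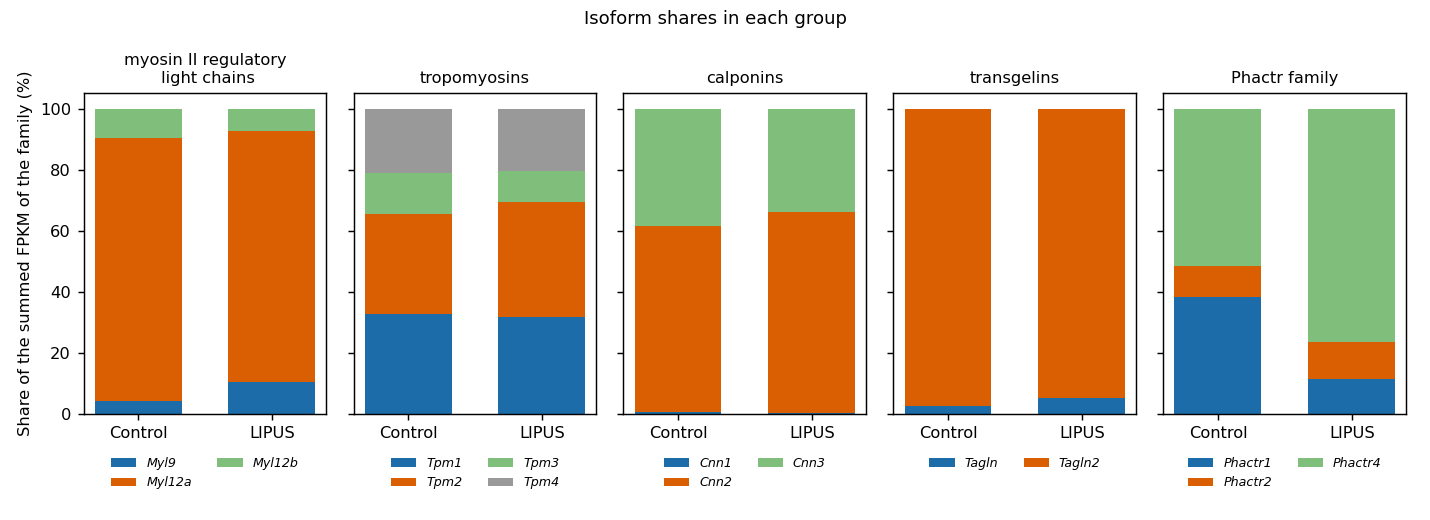
Share of each isoform in the summed FPKM of its family (y axis, percent, bars stacked to 100%) in Control and LIPUS, for 5 families. Myl9 goes from 4.03% to 10.5% of the regulatory light chains and Phactr1 from 38.2% to 11.3% of the Phactr family, while the main isoforms Myl12a, Cnn2 and Tagln2 stay the main ones.

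Among the cross-linkers and adhesion proteins, none reached 1.5-fold. Zyx (zyxin, a LIM protein that moves to strained filaments) was the most abundant, with 760 FPKM in Control and 940 with LIPUS (0.31). Tln1 (talin, the link to integrins) had 75.2 and 95.3 FPKM (0.34), Actn1 (alpha-actinin 1) 154 and 189 FPKM (0.30) and Flna (filamin A) 236 and 288 FPKM (0.29). Actn4, the other non-muscle alpha-actinin, had 282 and 313 FPKM (0.15). Vcl (vinculin, the partner of talin) and Flnc (filamin C, a muscle-type filamin) were level, at 146 and 139 FPKM and at 75.1 and 74.6 FPKM.

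The genes of monomer turnover were abundant and stayed within the 1.5-fold bounds. Pfn1 (profilin, which loads monomers for growth) had 867 and 1050 FPKM (0.28), and Cfl1 (cofilin, which severs filaments) 961 and 1085 FPKM (0.18).

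Srf, the factor that binds the CArG box, had 74.8 FPKM in Control and 80.5 with LIPUS, a log2 ratio of 0.10. The Phactr proteins bind actin monomers and protein phosphatase 1. Phactr1 (chr13:42680623-43138526) had 9.48 FPKM in Control and 2.36 with LIPUS, a log2 ratio of -1.64 and the lowest of all members. Phactr4 had 12.8 and 16 FPKM (0.30), Phactr2 2.50 and 2.56 FPKM (0.02), and Phactr3 was listed at 0 in both groups. Phactr1 made up 38.2% of the Phactr FPKM in Control and 11.3% with LIPUS, and Phactr4 51.7% and 76.5%.

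**Figure D4:**
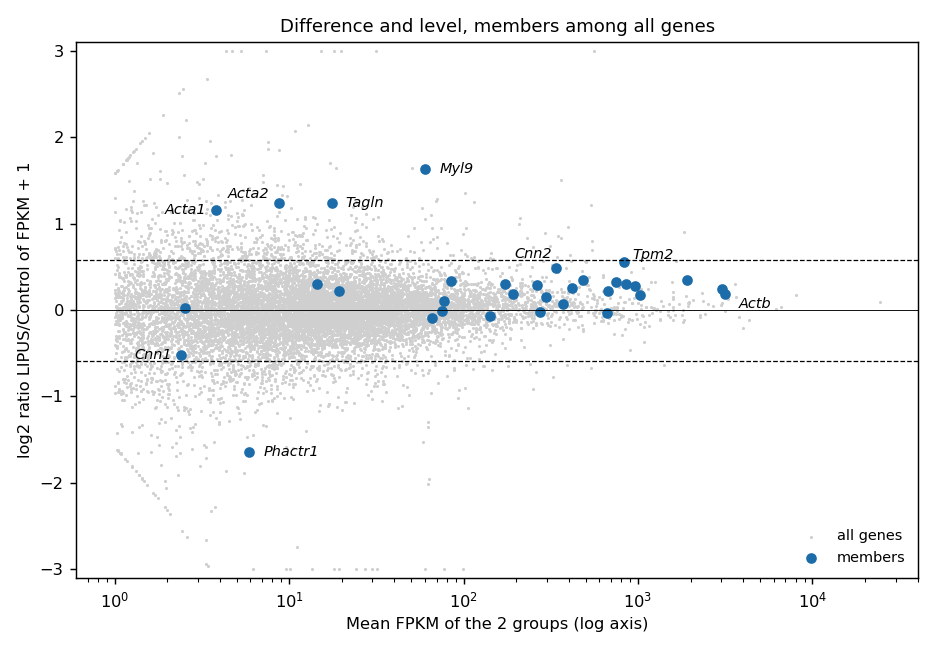
Log2 ratio of FPKM + 1 (LIPUS over Control) against the mean FPKM of both groups on a log axis, for all 11536 genes with a mean FPKM of at least 1 (grey) and the 33 members (blue), with dashed lines at 1.5-fold and the 22 genes beyond 3 drawn at the edge. Myl9, Acta1, Acta2 and Tagln lie above the upper line and Phactr1 below the lower one, and the 20 members above 100 FPKM lie between the lines.

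The members counted as higher all had a mean FPKM under 100. Over the whole table, too, fewer genes were that much higher at 100 FPKM or more (3.05%) than at 1 or more (5.63%). No trait of the members is therefore read from this split. The 20 members with a mean FPKM of at least 100 had a median log2 ratio of 0.25, and 17 of them were above 0, but none reached 1.5-fold, where 3.05% of the 952 genes at this level were that much higher. Of those 952 genes, 63% were above 0 and the median was 0.05. Counted in FPKM, the differences were largest for Actg1 (512 FPKM higher with LIPUS), Myl6 (463), Actb (409) and Tpm2 (320), against 63.0 FPKM for Myl9. The summed FPKM of the members was 15711 in Control and 18720 with LIPUS, or 2.63% and 3.03% of the FPKM of all genes. The FPKM summed over all genes was itself 1.032 times as high with LIPUS.

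How many fragments stood behind these values was estimated from the low end of the table. In genes with a single transcript over 1500 bases, FPKM multiplied by the length less 170 bases (in kb) fell on steps of 0.188, 0.242 and 0.254 in Control and of 0.213 and 0.218 with LIPUS, taken here as the worth of 1 fragment in a library. This reading implies fewer fragments per library than the sequencing depth given in the methods, so the counts and intervals below hold only if it is right, and with more fragments the intervals would be narrower. These steps held 37.2%, 28.1% and 31.4% of the 427 lowest such genes in Control, and 33.9% and 64.6% of 395 with LIPUS, each within 1%. On this reading Myl9, with a single coding transcript of 1128 bases, rested on 109 to 147 fragments in Control and 405 to 413 with LIPUS. Its fold of 3.19 had a 95% interval of 2.57 to 3.97 (exact binomial, from the lower counts), which covers counting error only and not the spread between cultures.

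For members with several coding transcripts the count depends on which transcript is expressed, and the interval was taken from the fewest fragments that any of them allows. For Acta2, at least 12 fragments in Control and 38 with LIPUS gave a fold of 2.64 with an interval of 1.35 to 5.56. For Tagln, the fold of 2.50 had an interval of 1.04 to 6.89, and for Phactr1, with at least 66 and 19 fragments, the fold of 0.249 had one of 0.141 to 0.420. For Acta1, the bounds of 3.4 and 12 fragments gave a fold of 2.86 with an interval of 0.772 to 15.8, which includes no difference. On the same reading Cnn1 allowed no direction (fold 0.600, interval 0.0102 to 11.5). In all, the interval at the fewest fragments included no difference for 15 of the 33 members, among them Actg2, Cnn3, Vcl, Actn4, Tln1, Srf, Phactr2 and Phactr4. With more fragments behind them some of these intervals would be narrower.

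Reads shared with other genes bear on some of these levels. Of all stretches of 100 bases (the read length) in the coding transcripts of the members (GENCODE M21), 20 members shared none exactly with another gene. This holds for transcripts on either strand, and among these members were Myl9, Acta1, Acta2, Phactr1, Cnn1, Cnn2 and Tpm2. Stretches that differ by a few bases, as between close relatives such as the actins, were not looked for. Tagln shared 32.7%, nearly all with the gene Gm48529, Actg1 39.4%, mostly with Gm12715, and Vcl 37.6%, with its neighbour Ap3m1. Myl12a shared 19.2% and Myl12b 29.0%, and the authors' table gave both the same genomic interval, so the split between them is uncertain. The levels of Tagln, Actg1, Vcl, Tpm3 (27.6%) and both Myl12 genes are uncertain for this reason, and what part it has in their differences was not tested.

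The markers of other cell types were checked beside the muscle isoforms. Of 8 smooth muscle markers, Pdlim3, Pln and Myocd (the coactivator that drives smooth muscle genes) were listed at 0 in both groups, and the summed FPKM of the list was 96.6 in Control and 98.6 with LIPUS. Nearly all of it came from Smtn (65.2 and 65.5 FPKM) and Csrp2 (28.4 and 27.7). Lmod1, an actin nucleator of smooth muscle, was the single marker past 1.5-fold, with 2.22 and 4.53 FPKM (0.78). Of 6 skeletal muscle markers, Myod1, Myog, Ckm, Tnnt3 and Myh3 were at 0 in both groups and Mylpf was level at 1.15 and 1.16 FPKM. In RNA of whole cultures, fewer cells of a kind and less RNA per cell cannot be told apart.

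The osteocyte label was met in part. Pdpn had 295 FPKM in Control and 402 with LIPUS, Gja1 176 and 170, and Cd44 200 and 212, while Sost, Mepe and Fgf23 were listed at 0 in both groups and Phex had 0 and 0.190. Dmp1 had 3.04 and 7.65 FPKM (1.10). Of the osteoblast markers, Alpl (293 and 190 FPKM, -0.63) and Runx2 (24.4 and 14.8 FPKM, -0.69) were at least 1.5-fold lower, where 5.95% of all genes were. All 5 markers of that list with a mean FPKM of at least 1 were below 0, and 49.8% of all genes at that level were above 0. Below that level, Ibsp was at 0 in both groups, and Bglap was listed at 0 in Control and had 1.58 FPKM with LIPUS.

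Endothelial and epithelial markers were near 0. Cdh5, Kdr, Tek, Epcam, Krt8 and Cdh1 were at 0 in both groups, and the summed FPKM of either list stayed under 1 in both. Of 4 leukocyte markers Ptprc was at 0 in both groups, Cd68 had 5.32 FPKM in Control and 1.72 with LIPUS, Lyz2 2.01 and 0.189, and their summed FPKM was 7.56 and 2.14. The part of these markers in the differences of the contractile genes was not tested.

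The partners of these genes in the same pathway were set beside them. Of the coactivators and cofactors of Srf, 7 had a mean FPKM of at least 1, none reached 1.5-fold and the median log2 ratio was 0.04. The MRTF genes were Mkl1, with 29.6 FPKM in Control and 22.3 with LIPUS (-0.39), and Mkl2, with 5.29 and 3.39 FPKM (-0.52). The ternary complex factors, which join Srf at early genes, were Elk1, Elk3 and Elk4, with log2 ratios of -0.02, 0.26 and 0.34. Without a pseudocount the log2 ratio of Mkl2 was -0.64 and passed 1.5-fold. Both MRTF ratios lay below 0 but within the 1.5-fold bounds on the FPKM + 1 scale, and the ternary complex factors lay on either side of 0. The 10th percentile over all genes was -0.43. Mkl2 was not compared by the authors, and no counting interval was estimated for these partners, so no direction is read for them.

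The early genes that Srf drives with those factors had the highest median of the other pathway lists. Of 9 such genes, 6 were at least 1.5-fold higher with LIPUS, where 5.63% of all genes were, and the median log2 ratio was 0.83. All 9 were above 0, where 49.8% of all genes were. Egr2 had 56.6 FPKM in Control and 147 with LIPUS (1.36), Egr3 67.9 and 163 and Fosb 34.8 and 80.1 (1.18). Nr4a1 (0.95), Egr1 (0.83) and Junb (0.70) also passed. This list too was chosen with earlier results of these data known.

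The 14 genes of the Arp2/3 complex and its activators, which branch filaments, had a median of 0.06 with none past 1.5-fold. The 17 focal adhesion and LIM proteins had a median of 0.08 and none past 1.5-fold. Of them 14 were above 0, where 49.8% of all genes were, and 63% of those with a mean FPKM of at least 100. Over all genes 5.63% were at least 1.5-fold higher and 5.95% lower.

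Of 12 proteins of actin monomers and filament ends, Tmsb4x (thymosin beta 4, which stores monomers) was at least 1.5-fold higher, where 5.63% of all genes were. It had 3.11 FPKM in Control and 11.1 with LIPUS (1.56). Fragments and shared stretches were estimated for members only, so how far these low Tmsb4x values can be read is not known. Tmsb10, its more abundant relative, had 1218 and 939 FPKM (-0.38). Gsn (gelsolin, which cuts and caps filaments) had 204 and 290 FPKM (0.50), and the median of the list was 0.09. Of the relatives of members that were left off the list, 6 of 12 had a mean FPKM of at least 1, none reached 1.5-fold and the median was 0.09. Dstn (destrin, a relative of cofilin) had the highest ratio of these, with 167 and 239 FPKM (0.52).

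**Figure D5:**
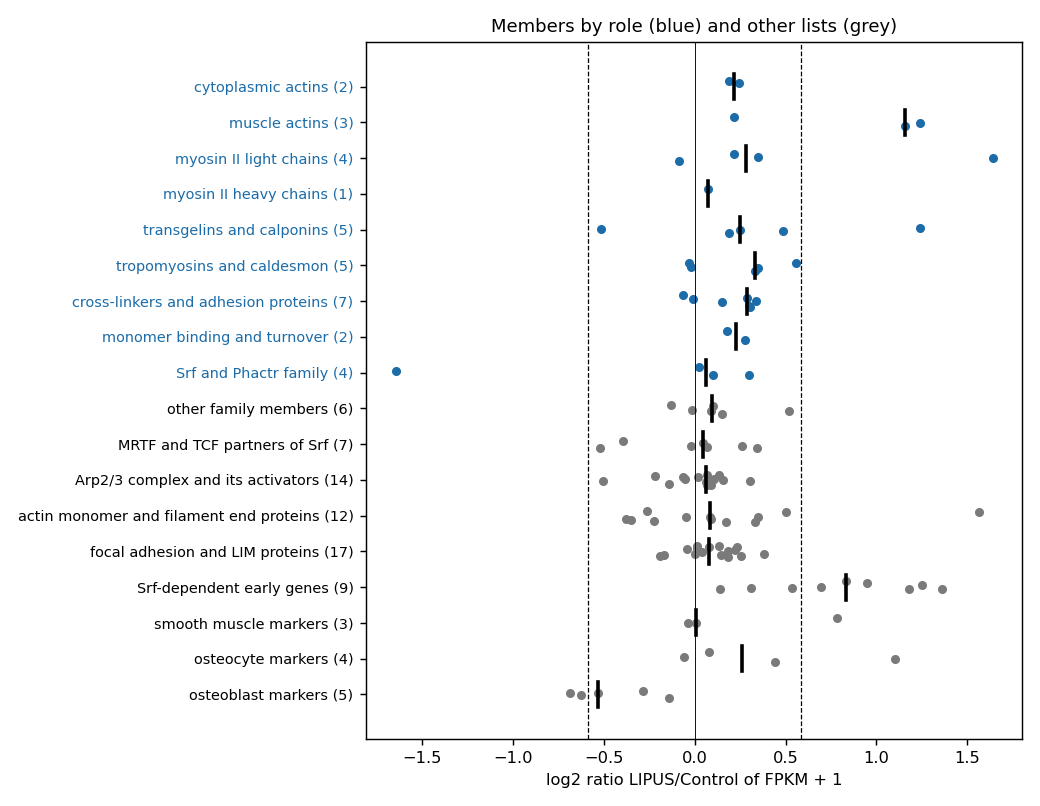
Log2 ratio of FPKM + 1 (LIPUS over Control) of each gene with a mean FPKM of at least 1, for the members by role (blue) and for other lists (grey), with the number of genes in brackets, the median as a black bar and dashed lines at 1.5-fold. The early genes of Srf have a median of 0.83, the muscle actins one of 1.16 over 3 genes, and the other pathway lists lie near 0.

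The authors' table marks for each gene whether a comparison was made. This was so for 30 of the 36 members, and not for Acta1, Myh10, Myh11, Cnn1, Phactr2 and Phactr3. The highest mean FPKM among these 6 was 3.79 (Acta1), and the lowest among the 30 was 5.92 (Phactr1). The higher level of Acta1 with LIPUS therefore stands without a comparison by the authors, while the other 4 members past 1.5-fold had one.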

How the data were processed

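RNA of 3 LIPUS and 3 Control samples of MLO-Y4 cells was analysed from a single table in the layout of Cuffdiff. Per the labels and methods, the authors prepared stranded mRNA libraries, used Trimmomatic 0.36 on paired-end reads, TopHat2 2.1.0 and Bowtie2 2.2.6.0 for alignment to GRCm38, and computed FPKM with Cufflinks and Ensembl transcripts. The deposited FPKM is 1 value per gene and group over its libraries. The table also holds the authors' fold changes, test statistics, p-values, q-values and calls in 5 columns, which were not used. No test was possible on pooled values.

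Here, log2 ratios were computed with a pseudocount of 1 for genes with a mean FPKM of at least 1, and counted from 1.5-fold on. The counting step was run on simulated 2-fold changes in genes with a mean FPKM of at least 10. This checks only how the counts are computed, and does not cover the lower levels of Acta1, Acta2 and Phactr1. The members and lists were chosen with earlier results of these data known. All members are named, and of other lists the genes past 1.5-fold and the markers at 0. Other genes of those lists were named after their values were seen. The result of 1 list is not reported here. The symbols Mrtfa and Mrtfb were not in the table, which has Mkl1 and Mkl2. Gene positions and transcripts came from GENCODE M21 and promoters from RefSeq, both on GRCm38. Alternatives were other pseudocounts, filters, scalings and folds. The tools were scipy 1.17.1, pandas 2.3.3, numpy 2.4.6 and matplotlib 3.10.9 under Python 3.11.15.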

Additional observations from a re-analysis of the deposited data

How the results depend on the processing

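The median log2 ratio of the members stayed between 0.20 and 0.26 under each alternative run. The count of 4 members at least 1.5-fold higher stood beside 5.63% of all genes. With a smaller fold (0.32 on the log2 scale) it became 10, where 14.6% of all genes passed. It became 2 with a mean FPKM of at least 10 (3.13% of genes) and 0 with at least 100 (3.05%). It became 3 without the members that share over 5% of their 100-base stretches, which drops Tagln (5.62% of genes). It was also 3 with only the genes that the authors compared, which drops Acta1 (4.09% of genes). The count of 1 lower member stood beside 5.95% of all genes. It became 2, in each case by adding Cnn1, with a pseudocount of 0.1 or none (8.08% of genes for either) and with the smaller fold (15.4%). The same held with FPKM rescaled to a larger sum, the same in both groups, which also lessens the weight of the pseudocount (8.49%). The count became 0 with a mean FPKM of at least 10 (3% of genes) or of at least 100 (1.68%). With a fold of 2, centring on the median or no filter both counts stayed as they were. The filter at 100, the removal of those 11 members and the limit to compared genes were chosen after seeing the data. Over single members and lists, 345 values moved by under 0.1 on the log2 scale, 20 moved by more, and none that was past 1.5-fold changed sign. The planned removal of members with near-identical proteins was not run, because no protein sequences were used here. No paired analysis was possible because the table holds 1 value per group, and for the same reason no replicate could be left out in turn. The pooled values limit all differences to a description, and at the fewest fragments that the transcripts allow 15 of the 33 members, Acta1 and Cnn1 among them, had intervals that include no difference.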

Other observations

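The steps of the low FPKM values also describe the libraries. In Control they took 3 sizes, from 0.188 to 0.254 FPKM kb, and with LIPUS 2 sizes, 0.213 and 0.218, of which the larger held 64.6% of the low genes. Taken as the worth of 1 fragment, the steps lay further apart in Control than with LIPUS. The part of this in the differences of the contractile genes was not tested.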
